A study of Mus musculus with 10 samples.

Results

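RNA of embryonic stem cells (ESCs) was compared with RNA of cells caught at day 6 of induced reprogramming (D6), to see how far mid-stage intermediates lay from established pluripotency. The comparison used the 2 ESC and the 2 D6 libraries, chosen by the stage in their labels, of 10 libraries in all. The other 6 came from uninduced mouse embryonic fibroblasts (MEF) and from cells at day 3 and day 9, and they entered the statistical model and served as reference levels. D6 cells came from fibroblasts of strain C57BL/6 x 129 and genotype OKSM Col1a1/M2rtTA ROSA26. Such cells carry a cassette for Pou5f1 (Oct4), Klf4, Sox2 and Myc in the Col1a1 locus, which the transactivator M2rtTA, placed in the ROSA26 locus, switches on when doxycycline is given. They were kept in ESC medium with doxycycline at 1 µg/ml and ascorbic acid at 50 µg/ml. They were sorted for the surface epitope SSEA1, so they are the SSEA1-positive fraction of the culture and not the whole of it. Day 3 and day 9 cells had the same doses. Day 9 cells were also sorted for SSEA1, whereas day 3 cells were the whole culture. The ESC libraries came from V6.5, a single established line that the labels also give as strain C57BL/6 x 129. It was grown unsorted on irradiated feeder cells in the same medium, with 15% serum and LIF at 1000 U/ml, and neither doxycycline nor ascorbic acid is recorded for it. Genotype, drug, sorting and feeders therefore differ together between the groups, and their parts cannot be told apart.

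Pluripotent cells keep themselves undifferentiated through a network in which Oct4 and Sox2 act with Nanog, Esrrb, Klf2, Klf5 and other factors, each binding the enhancers of the others. During factor-driven reprogramming, fibroblast genes are silenced early, epithelial genes follow, and the endogenous network is switched on late and in a small share of cells. SSEA1 is a fucosylated carbohydrate of early embryonic cells that is used to enrich for cells on that path, and irradiated feeder fibroblasts, which no longer divide, are a common support for ESC cultures.

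The D6 libraries held 32888976 and 31856543 estimated reads and the ESC libraries 31221957 and 34611626. Levels are given as CPM, the reads of a gene scaled to a common library size. Genes counted as changed had a Benjamini-Hochberg adjusted p under 0.05 in the quasi-likelihood test of edgeR, fitted to all 10 libraries, and differed by 1 or more on the log2 scale (the fold minimum). Fold changes are ESC relative to D6 unless stated. Nothing in the labels ties libraries of a group to separate cultures, so p-values measure the spread between these libraries, which was small: the biological coefficient of variation was 3.75%. An exact two-sided permutation test of 2 libraries against 2 cannot reach p under 0.05, since the smallest p it allows is 2 of 6 arrangements of the libraries, so no such test is given for single values. In bulk RNA, fewer cells that express a gene and less RNA of it per cell cannot be told apart.

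Of 20165 genes tested, 4079 (20.2%) were higher and 3009 (14.9%) lower in ESCs than in D6 cells, 7088 (35.2%) in all. The counts of called list members below are to be read beside these shares. The higher genes had the larger changes: their median log2 fold change was 2.92, against -1.83 for the lower genes. A log2 fold change of at least 5 was reached by 1017 of the higher and 225 of the lower genes. The median over all tested genes was 0.02. Measured as the root mean square difference of log2 CPM over the tested genes, D6 lay 1.835 from ESC. Replicate libraries lay 0.5 (D6) and 0.464 (ESC) apart, and the 4 pairs of a D6 with an ESC library lay between 1.865 and 1.868 apart. By the same measure, D6 lay 1.976 from MEF and 0.676 from day 9, and day 9 lay 1.71 from ESC. With a median share of feeder RNA taken from ESC, as described below, D6 lay 2.001 from ESC. That is above the main-setting distance from MEF, so whether ESC or MEF was nearer to D6 depends on how feeder RNA is allowed for. The subtraction set some genes to 0 in ESC, which can widen a log2 distance, and its part in this change of order was not tested. These distances share libraries with each other.

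**Figure D1:**
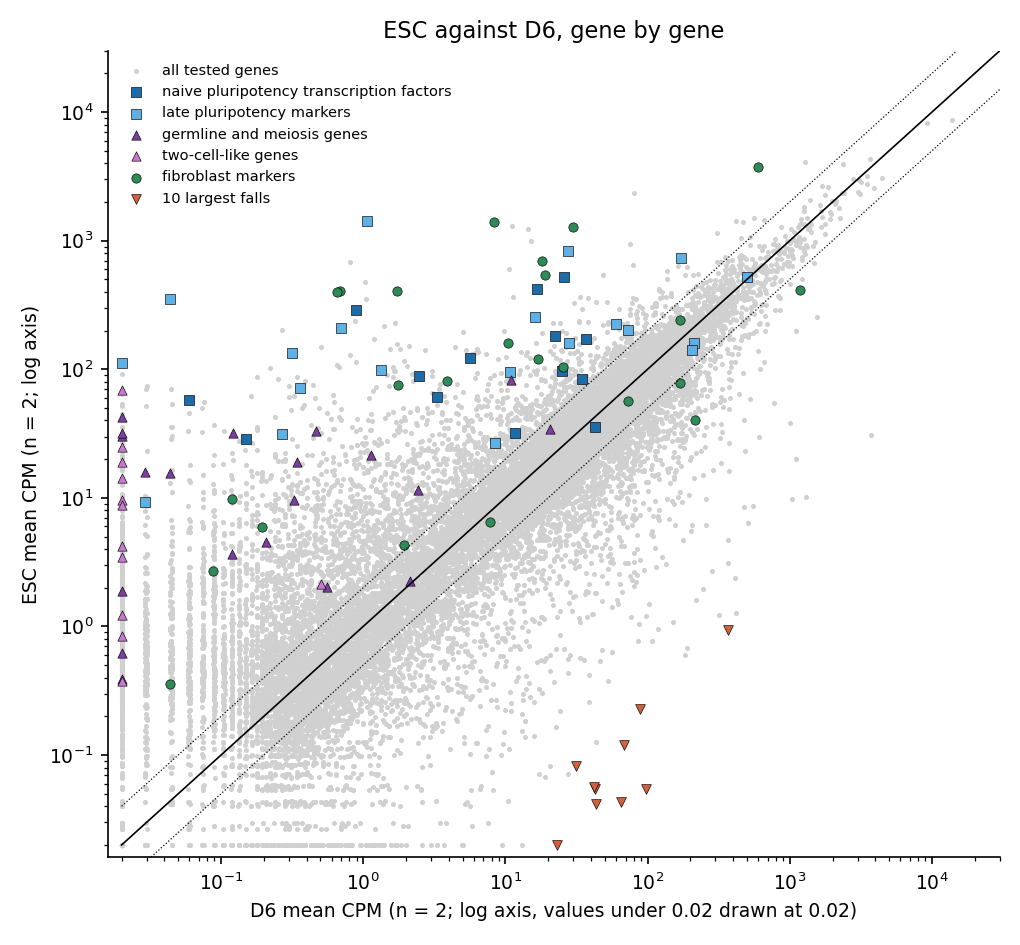
Mean CPM of each tested gene in D6 (x axis) and ESC (y axis), 2 libraries a group, both on log axes; the solid line marks equal levels and the dotted lines a 2-fold difference. Most pluripotency, germline and fibroblast markers lie above the diagonal, and the 10 largest falls, such as Tac2 and Sbspon, lie at the lower right.

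Fibroblast markers were detected in the ESC libraries, which were grown on feeders. Feeder RNA and expression by cells of the ESC culture itself cannot be told apart for them. Of 24 fibroblast markers, 19 had a higher mean in ESC than in D6, and 18 were called higher and 3 lower. Their summed level was 78800 and 76100 CPM in the MEF libraries, 2580 and 2540 CPM in D6, and 10100 and 10300 CPM in ESC. Col1a1, a chain of collagen I, was at 8.23 and 8.47 CPM in D6 and at 1410 and 1380 CPM in ESC. Col3a1, the chain of collagen III, was at 1.85 and 1.63 CPM in D6 and 386 and 421 CPM in ESC. For Postn, which encodes the matrix protein periostin, D6 had 0.853 and 0.514 CPM and ESC 396 and 421 CPM. These genes were named for their wide changes, so the gap between the groups follows from that choice. In ESC they remained below MEF (15600 and 14400 CPM for Col1a1). Over the 24 markers the ESC mean was a median of 9.49% of the MEF mean (range 1.11% to 42.9%), and the D6 mean a median of 0.551% (range 0.014% to 45%). Fn1, the matrix protein fibronectin, and Mmp2, a matrix protease, had the largest ESC shares of MEF. Fstl1, a secreted glycoprotein at 1190 and 1180 CPM in D6 and 406 and 428 CPM in ESC, was lower in ESC, as were Col6a1 and Col6a2. None of the 24 markers was at 0 in both D6 or in both ESC libraries.

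**Figure D2:**
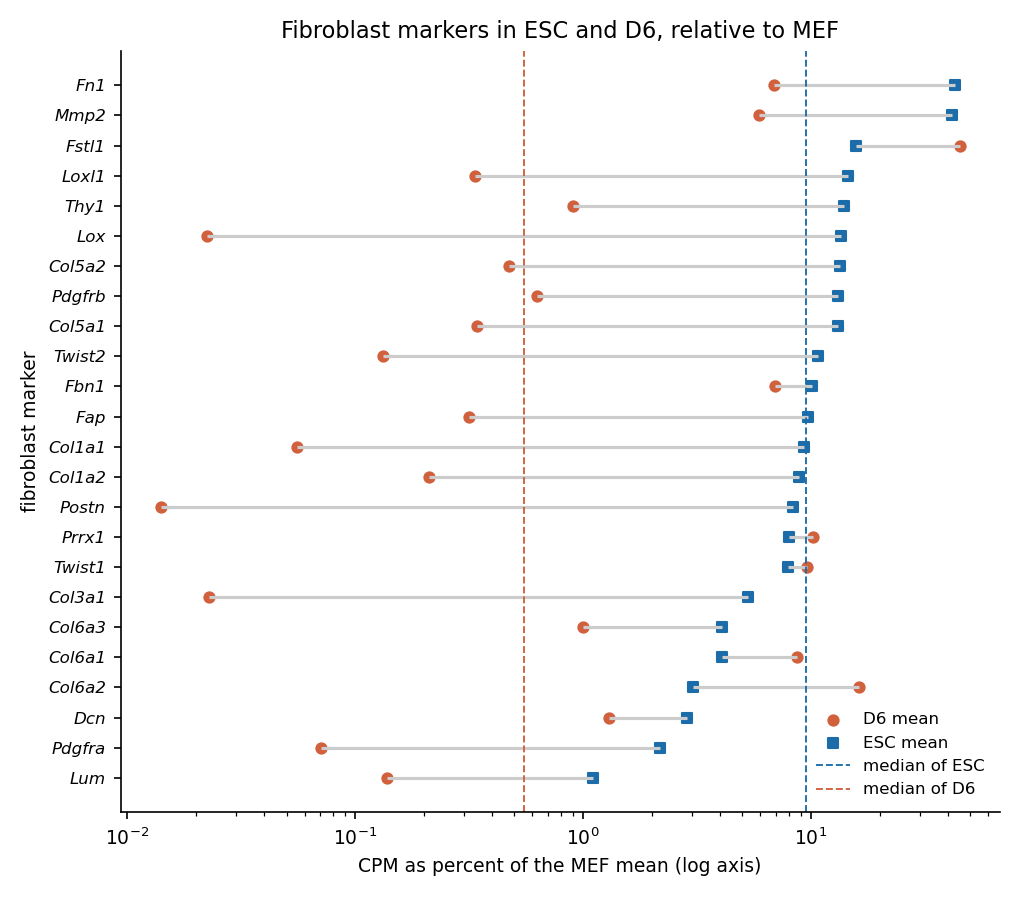
Mean level of 24 fibroblast markers in ESC (squares) and D6 (circles) as percent of the MEF mean, on a log axis, with dashed lines at the medians of 9.49% (ESC) and 0.551% (D6). Most ESC values lie to the right of the D6 values; Fstl1, Col6a1, Col6a2, Prrx1 and Twist1 are the exceptions.

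Of the 4079 genes higher in ESC, 1225 had a higher mean in MEF than in ESC. Feeder cells were not sequenced, so MEF stands in for them below. Taking from each ESC library the median share of 9.49% of the MEF level left 3704 of the 4079 genes called higher. The other 375 (9.19%) were no longer called higher, and 103 of them were called lower. With the 90th percentile share, 15.4%, 3503 remained called higher. Of the 3009 lower genes, 2916 and 2862 remained called lower under these shares. The subtraction also made new calls, with totals of 3924 higher and 3601 lower at the median share and 3895 and 4088 at the 90th percentile, so the side with more calls depends on it. For some genes the share was larger than the whole ESC level, and these were set to 0. At the median share they included Lum (1.11% of MEF in ESC), Pdgfra (2.18%), H19 and Igf2. For such genes the subtraction takes too much, and how many lower calls rest on this was not counted. Because the share was estimated from the fibroblast markers, their own calls after subtraction are no evidence.

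Some markers of other cell types were also higher in ESC. All 8 macrophage markers were called higher, among them Lyz2, the lysozyme of myeloid cells, which was at 0.47 and 0.514 CPM in D6 and 49.6 and 50.6 CPM in ESC. Summed, the 8 were at 5.03 and 6.26 CPM in D6, 13.7 and 14.7 CPM in MEF and 82.4 and 86.3 CPM in ESC. Cd68, a lysosomal protein of macrophages, was at 3.85 and 5.32 CPM in D6 and 25.6 and 25.4 CPM in ESC. The remaining 6 markers were at most at 3.42 CPM (Csf1r) in an ESC library, with Ptprc (CD45) at 0.795 and 0.881 CPM and Adgre1 (F4/80) at 1.18 and 1.66 CPM. Of 6 skeletal muscle markers tested, 5 were called higher and 0 lower, with sums of 7.44 and 7.86 CPM in D6, 142 and 146 CPM in MEF and 77.3 and 84 CPM in ESC. Des, the muscle intermediate filament, made up most of the ESC sum, at 50.1 and 55.7 CPM. The regulators Myog and Myf5 had no read in D6, and in ESC Myog was at 0.265 and 0.294 CPM and Myf5 had 1 read. Whether macrophages or muscle cells were present, or whether ESCs or feeder cells expressed these genes, was not tested.

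The cassette factors did not move together. Pou5f1, which encodes Oct4, was at 323 and 296 CPM in D6 and 1120 and 1180 CPM in ESC, 3.72-fold higher (log2 fold change 1.9 ± 0.05 SE, adjusted p = 2.3e-13). Sox2 was at 304 and 302 CPM in D6 and 242 and 241 CPM in ESC, a log2 fold change of -0.33 ± 0.03 that missed the fold minimum (adjusted p = 4e-07). Klf4 was at 474 and 462 CPM in D6 and 179 and 186 CPM in ESC, 2.57-fold higher in D6 (log2 fold change -1.36 ± 0.03, adjusted p = 1.2e-13). Of the 4, then, Oct4 alone was above its D6 level in ESCs. Myc, the growth-promoting factor, was at 334 and 325 CPM in D6 and 19 and 18.4 CPM in ESC, 17.6-fold higher in D6 (log2 fold change -4.14 ± 0.04, adjusted p = 1.9e-17). Transcripts of the cassette and of the endogenous genes are summed in these values. For Myc the deposited tables place 90.6% of the D6 reads on the transcript Myc-202, which took 5% and 4.2% of the Myc reads in ESC. For Pou5f1, the transcript Pou5f1-001 took 83.1% and 84.6% of the reads in D6 and 85.4% and 86.5% in ESC.

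Beyond the cassette, 13 of 14 factors of naive pluripotency, all transcription factors but Tcl1, were called higher in ESC and 0 lower, with a median log2 fold change of 4.27. Nanog was at 25 and 26.6 CPM in D6 and at 522 and 528 CPM in ESC, 20.4-fold higher (log2 fold change 4.35 ± 0.07, adjusted p = 1.7e-15). Esrrb, a nuclear receptor that sustains self-renewal, was at 16.6 and 17.1 CPM in D6 and 419 and 422 CPM in ESC, 25-fold higher (log2 fold change 4.64 ± 0.05, adjusted p = 1.4e-17). Zfp42 (Rex1), a reporter of the naive state, was at 0.823 and 0.968 CPM in D6 and 289 and 291 CPM in ESC, 324-fold higher. Of the 3, Zfp42 had the lowest share of its ESC level in D6. Prdm14 (0.0882 and 0.212 against 28.3 and 28.6 CPM) and Tcl1 (0.0882 and 0.0302 against 58 and 57.7 CPM) were close to silent in D6. Prdm14 is a repressor of differentiation genes, and Tcl1 is a coactivator of the kinase Akt.

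The other members differed by smaller and larger factors. Tfcp2l1, a partner of Esrrb, rose 4.67-fold (38.3 and 35.8 CPM in D6, 174 and 172 CPM in ESC), Sall4 8.02-fold, Nr0b1 3.92-fold and Gbx2 2.74-fold. Klf2 and Klf5, the Krüppel-like factors that share targets with Klf4, rose 21.5-fold and 18.4-fold. Klf2 was at 170 and 166 CPM in MEF, so its D6 level of 6.03 and 5.29 CPM was below both other groups. Tbx3, a T-box factor, was also lower in D6 than in MEF and ESC. It was at 16.5 and 16 CPM in MEF, 2.94 and 2 CPM in D6 and 87.7 and 88.6 CPM in ESC. At day 9 it was at 1.29 and 2 CPM, so D6 was not its lowest group. Nr5a2, a nuclear receptor that can stand in for Oct4 in reprogramming, was the exception. It was at 49.1 and 36.9 CPM in D6 and 35.6 and 35.7 CPM in ESC (log2 fold change -0.27 ± 0.09, adjusted p = 0.02), and did not meet the fold minimum. After subtraction of the feeder share, the same number of these factors, 13 of 14, was called higher.

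**Figure D3:**
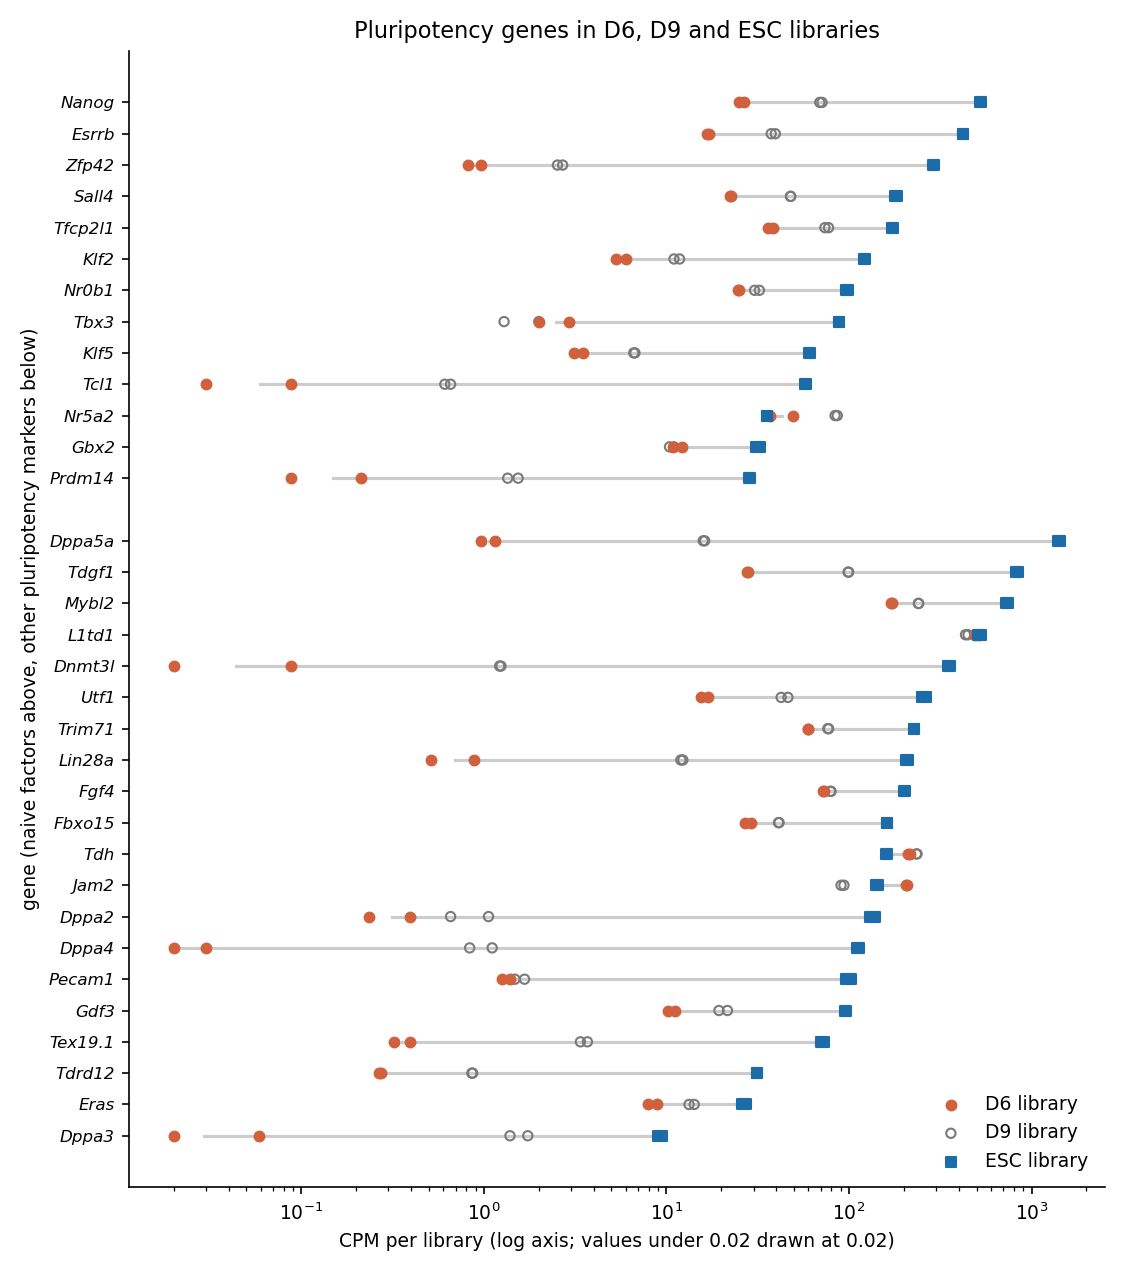
CPM of 13 of the 14 naive pluripotency factors (upper block) and 20 other pluripotency markers (lower block) in each D6, D9 (day 9) and ESC library, on a log axis; grey bars join the D6 and ESC means. ESC squares lie right of the D6 circles for all genes except Nr5a2, Tdh, Jam2 and L1td1, where the groups lie close together.

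Among 20 later pluripotency markers, 17 were called higher in ESC and 0 lower, with a median log2 fold change of 4.46. Dppa5a, an RNA-binding protein of the early embryo, was at 1.15 and 0.968 CPM in D6 and 1400 and 1440 CPM in ESC, 1340-fold higher (adjusted p = 3.2e-17). Lin28a, which blocks let-7 processing, was at 0.882 and 0.514 CPM in D6 and 211 and 206 CPM in ESC, 299-fold higher. Dppa2 was at 0.235 and 0.393 CPM in D6 and 139 and 130 CPM in ESC. Its partner Dppa4, which binds chromatin with it, had 1 read in the 2 D6 libraries together and 113 and 111 CPM in ESC. The ratio was 7540 (95% counting interval 1350 to 298000), and intervals of this kind cover counting error only. Dnmt3l, the cofactor of the de novo DNA methyltransferases, had 3 reads in D6 and 348 and 357 CPM in ESC, a ratio of 7880 (interval 2700 to 38200). Dppa3 (Stella), a maternal-effect factor, had 2 reads in D6 and 9.01 and 9.51 CPM in ESC. These members had the widest changes of the list, so the gap between the groups follows from that choice.

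A second set was expressed at D6 and rose by less or did not rise. Fgf4, an autocrine ligand of ESCs, was at 72.6 and 71.9 CPM in D6 and 202 and 201 CPM in ESC, 2.79-fold higher. Utf1, a chromatin-bound target of Oct4 and Sox2, rose 15.9-fold from 16.9 and 15.4 CPM. Tdgf1 (Cripto), the coreceptor of Nodal, rose 30.3-fold from 27.9 and 27.5 CPM, and Mybl2, a cell cycle transcription factor, 4.3-fold from 172 and 169 CPM. L1td1, an RNA-binding protein derived from a transposon, was at 513 and 489 CPM in D6 and 512 and 528 CPM in ESC (log2 fold change 0.05 ± 0.03, adjusted p = 0.17), so its ranges overlapped. Tdh, the threonine dehydrogenase of mouse ESCs, was at 215 and 211 CPM in D6 and 160 and 161 CPM in ESC and did not meet the fold minimum (log2 fold change -0.41 ± 0.03, adjusted p = 3e-08). Jam2, an adhesion molecule of this list, was at 205 and 207 CPM in D6 and 144 and 140 CPM in ESC (log2 fold change -0.53 ± 0.03, adjusted p = 2.6e-09) and did not meet it either. The direction of Jam2 turned with TPM in place of counts.

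Genes of the formative and primed epiblast, the states that follow naive pluripotency, were mostly higher in ESC as well: 10 of 11 tested were called higher and 1 lower. Otx2, which drives the exit from the naive state, had no read in D6 and 11.9 and 13 CPM in ESC, at least 279-fold higher against a floor of 3 reads over the group. Foxd3, a repressor needed by pluripotent cells, had 1 read in D6 and 17.6 and 18.3 CPM in ESC, a ratio of 1210 (interval 216 to 47700). Dnmt3b rose 4.4-fold, from 30.8 and 32.6 CPM to 138 and 141 CPM. Pou3f1 (Oct6) went the other way, from 93.5 and 101 CPM in D6 to 12.8 and 13.7 CPM in ESC, 7.34-fold higher in D6 (log2 fold change -2.87 ± 0.07, adjusted p = 3.6e-14). It was at 0.148 and 0.305 CPM in MEF. Fgf5, the usual marker of primed epiblast, was called higher at low levels (0.0294 and 0.0605 CPM in D6, 0.295 and 0.961 CPM in ESC). Less the median feeder share, Sfrp2, a Wnt antagonist that fibroblasts express, was called lower, and the counts were 9 higher and 2 lower. The list's median log2 fold change was 3.04, and 2.14 with the 3 genes that had no read in D6 set at their lower bound.

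Genes of the germ line and of meiosis are kept silent in somatic cells by DNA methylation and by repressors that bind E-box and E2F sequences, and several are transcribed in ESCs. Of 20 such genes, 18 were called higher in ESC and 0 lower. Promoters are shown for 4 of them because the same short letter pattern recurs upstream of many. The stretches are the 250 bases before the start of transcription in RefSeq (GRCm38.p6), 5′ to 3′ on the gene's strand, with capitals for the E-box letters CACGTG and the E2F letters TCCCGC, read on either strand and hence also as GCGGGA.
Hormad1, chr3:95559427-95559676, + strand: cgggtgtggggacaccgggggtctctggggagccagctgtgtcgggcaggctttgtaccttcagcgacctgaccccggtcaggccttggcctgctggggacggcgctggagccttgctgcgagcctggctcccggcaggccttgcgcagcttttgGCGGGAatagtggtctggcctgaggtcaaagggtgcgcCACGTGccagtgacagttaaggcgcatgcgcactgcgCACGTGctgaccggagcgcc
Ddx4, chr13:112652311-112652560, - strand: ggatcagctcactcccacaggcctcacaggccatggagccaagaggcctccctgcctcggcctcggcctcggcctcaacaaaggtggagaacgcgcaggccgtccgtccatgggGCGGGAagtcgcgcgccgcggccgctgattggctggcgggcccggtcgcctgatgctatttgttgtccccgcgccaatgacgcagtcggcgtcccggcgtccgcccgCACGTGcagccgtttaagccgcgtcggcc
Sycp3, chr10:88459337-88459586, + strand: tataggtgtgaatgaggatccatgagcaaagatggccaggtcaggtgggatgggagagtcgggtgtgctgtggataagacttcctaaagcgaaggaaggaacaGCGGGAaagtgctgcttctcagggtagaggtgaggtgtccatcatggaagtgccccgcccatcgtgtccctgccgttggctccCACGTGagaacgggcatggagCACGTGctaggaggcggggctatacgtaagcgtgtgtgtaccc
Stk31, chr6:49395289-49395538, + strand: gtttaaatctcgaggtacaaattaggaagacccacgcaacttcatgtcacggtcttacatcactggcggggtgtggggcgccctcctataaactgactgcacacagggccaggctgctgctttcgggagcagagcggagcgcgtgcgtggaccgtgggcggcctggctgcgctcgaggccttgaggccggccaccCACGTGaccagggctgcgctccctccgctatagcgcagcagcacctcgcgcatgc

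In RefSeq, 18 of the 20 genes had a promoter entry, and 11 of the 18 (61.1%) held CACGTG within the 250 bases, against 6.86% of 27025 mouse genes. Counted by stretch, the share was 63.6% against 6.02% of all promoter stretches of that length. The E2F letters were in 27.8% of the germline genes against 18.8% of all, and both patterns in 22.2% against 1.69%. These are matches of letters, described without a test, and germline promoters held more CpG (a median of 17.5 against 6). Of 9 2-cell-like genes with an entry, 0 held CACGTG. Asz1, Dazl, Rhox13, Sohlh2, Syce1 and Tex101, all called higher, had no match to either pattern in this window, and Smc1b held the E2F letters alone. Tdrd1, which held CACGTG, did not pass the test (1.97 and 2.33 CPM in D6, 2.27 and 2.22 CPM in ESC, log2 fold change 0.06 ± 0.21, adjusted p = 0.81).

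Hormad1, a protein of the unpaired chromosome axis in meiosis, had no read in D6 and 43.4 and 41.3 CPM in ESC, at least 946-fold higher. Dazl, an RNA-binding protein of germ cells, had no read in D6 and 31 and 29.4 CPM in ESC, at least 674-fold higher. At day 9 the libraries held at most 0.202 CPM of Hormad1 and 0.0505 CPM of Dazl. Ddx4 (Vasa), the germ cell helicase, was at 0.0294 and 0.212 CPM in D6 and 31.6 and 32.6 CPM in ESC, 266-fold higher (adjusted p = 3.7e-12). Sycp3, a component of the synaptonemal complex, was at 0.47 and 0.181 CPM in D6 and 10.3 and 9 CPM in ESC, 29.6-fold higher (adjusted p = 3.8e-08). Stk31 had 3 reads in D6 and 15.8 and 15.4 CPM in ESC, a ratio of 348 (interval 119 to 1690). Some meiotic genes were already transcribed in D6: Stag3, a meiotic cohesin subunit, was at 11.1 and 10.8 CPM and rose 7.58-fold, and Piwil2, a piRNA-binding protein, was at 20.7 and 20.3 CPM against 34.1 and 34 CPM in ESC (log2 fold change 0.73 ± 0.06, adjusted p = 5.7e-08). Piwil2 did not meet the fold minimum. The list's median log2 fold change was 5.97, and 4.88 with the 5 genes without a read in D6 at their bound.

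Genes of the 2-cell-like state, which a small share of cells in an ESC culture enters at any time, were absent or nearly so from D6. All 12 tested were called higher in ESC, and their summed level was 0.5 and 0.635 CPM in D6 against 161 and 156 CPM in ESC. Zscan4c, a zinc finger protein that acts at telomeres, had no read in D6 and 22.5 and 27.2 CPM in ESC (at least 558-fold higher), and Zscan4b none in D6 and 10.2 and 9.05 CPM in ESC (at least 214-fold higher). Zscan4f had 1 read in D6 and 74 and 64.4 CPM in ESC. The Zscan4 genes are near-identical copies, so the split of reads among them is uncertain and their sum is the safer value. The list's median log2 fold change was 9.24, and 7.78 with the genes that had no read in D6 at their bound.

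The enzymes that set and remove DNA methylation were unequal. Of 10, 4 were called higher in ESC, 1 lower and 5 neither. Tet1, the main oxidase of 5-methylcytosine in ESCs, was at 51.4 and 46.6 CPM in D6 and 562 and 528 CPM in ESC, 11.1-fold higher (log2 fold change 3.48 ± 0.05, adjusted p = 4.5e-16). Tet3, its relative in somatic cells and the zygote, was at 100 and 101 CPM in D6 and 13.9 and 12.9 CPM in ESC, 7.5-fold higher in D6 (log2 fold change -2.91 ± 0.05, adjusted p = 5e-15). Dnmt3b and Dnmt3l rose, as given above, and Tet2 was near the fold minimum, with a log2 fold change of 1.02 ± 0.06. The maintenance methyltransferase Dnmt1 was at 356 and 344 CPM in D6 and 269 and 272 CPM in ESC, and its cofactor Uhrf1 at 384 and 374 CPM in D6 and 352 and 364 CPM in ESC. Neither met the fold minimum, and the log2 fold change of Uhrf1, -0.08 ± 0.04, did not pass the test (adjusted p = 0.054).

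ESC medium contains LIF, which acts through the receptor pair Lifr and Il6st (gp130), Jak kinases and Stat3. Of 12 genes of this pathway, 3 were called higher, 1 lower and 8 neither, beside 20.2% higher and 14.9% lower over all tested genes. Lifr was at 19.7 and 18.6 CPM in D6 and 59.5 and 57.3 CPM in ESC (log2 fold change 1.61 ± 0.05, adjusted p = 2e-12). Il6st moved the other way, from 195 and 192 CPM in D6 to 90.8 and 86.5 CPM in ESC (log2 fold change -1.13 ± 0.04, adjusted p = 1.4e-11), and missed the fold minimum with TPM in place of counts. Pim1, a kinase that Stat3 induces, rose from 31.7 and 34.5 CPM to 105 and 113 CPM (log2 fold change 1.72 ± 0.05). Socs3, the feedback inhibitor of the pathway, was at 123 and 129 CPM in D6 and 101 CPM in both ESC libraries (log2 fold change -0.32 ± 0.05, adjusted p = 8e-05) and was not called. Socs3 was at a mean of 528 CPM in MEF, and less the median feeder share its log2 fold change was -1.14, past the fold minimum.

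Nodal and activin signal through Smad proteins in pluripotent cells, and BMP signals through Id genes. Of 17 genes of these pathways, 10 were called higher in ESC, 5 lower and 2 neither. The ligand Nodal was at 12.1 and 13.1 CPM in D6 and 51 and 54.3 CPM in ESC (log2 fold change 2.06 ± 0.07, adjusted p = 7.6e-12). Its secreted inhibitor and target Lefty1 was at 1.88 and 1.45 CPM in D6 and 94.2 and 98.7 CPM in ESC, 57.9-fold higher (adjusted p = 1.5e-14), and Lefty2 at 2.23 and 2 CPM in D6 and 46.1 and 47.1 CPM in ESC. Smad7, an inhibitory Smad, rose from 9.38 and 9.29 CPM to 67.1 and 71.3 CPM. These 4 genes were named with their rise known, so the gap between the groups follows from that choice. The Id genes ran the other way: Id2 was at 284 and 293 CPM in D6 and 17 and 16.3 CPM in ESC, 17.4-fold higher in D6 (log2 fold change -4.12 ± 0.05, adjusted p = 1.1e-16). Id1 was at 130 and 140 CPM in D6 and 29.5 and 30.2 CPM in ESC, and Id3, at a log2 fold change of -1 ± 0.06, was called lower as well. Less the median feeder share, 8 members of the list were called higher and 6 lower.

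Some FGF receptors and feedback inhibitors of the ERK kinase pathway were lower in ESC, while other genes of the pathway were higher or not called. Of 16 genes, 4 were called higher, 7 lower and 5 neither, and the lower set held receptors, feedback genes and Etv factors. Dusp6, a phosphatase of ERK that ERK activity induces, was at 255 CPM in both D6 libraries and 47.3 and 48.5 CPM in ESC, 5.32-fold higher in D6 (log2 fold change -2.41 ± 0.04, adjusted p = 5.3e-16). Spry4, another feedback inhibitor, was at 177 and 175 CPM in D6 and 34 and 36.2 CPM in ESC, 5.01-fold higher in D6. Fgfr1, the main FGF receptor of ESCs, was at 445 and 441 CPM in D6 and 146 CPM in both ESC libraries. Fgfr2, Dusp4, Etv1 and Etv5 were called lower too, Dusp4 close to the fold minimum (log2 fold change -1.04). The ligand Fgf4 rose, as given above, and so did the ligand Fgf2, from 1.29 and 1.36 CPM to 25.7 and 27.6 CPM (log2 fold change 4.33 ± 0.12, adjusted p = 3.5e-13). Not all members called higher are named here, and the list's log2 fold changes ran from -2.41 to 5.9. Fgf2 was at a mean of 25.5 CPM in MEF. Egr1, an immediate-early target of ERK, was at 180 and 183 CPM in D6 and 214 and 211 CPM in ESC and was not called. MEF held 1860 CPM of Egr1, and its direction turned under either feeder share.

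**Figure D4:**
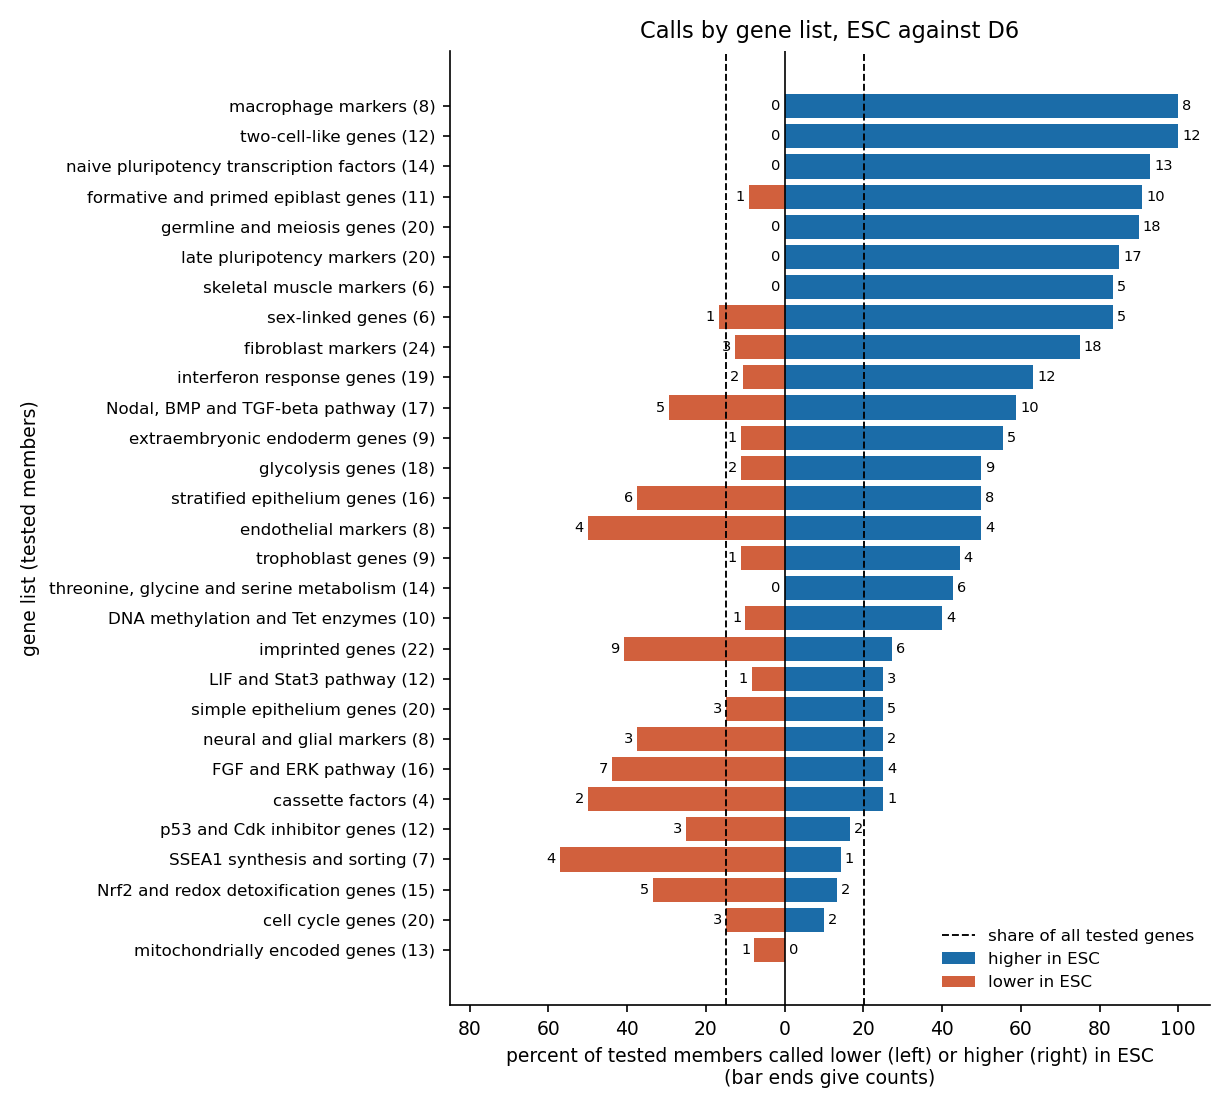
Percent of the tested members of each gene list called higher (right, blue) or lower (left, orange) in ESC than in D6, with the number of members called at the bar ends, the number tested in brackets and dashed lines at the shares of all tested genes (20.2% higher, 14.9% lower). The 2-cell-like and macrophage lists, with all tested members called higher, reach furthest to the right. The naive, formative and primed, germline and late pluripotency lists come next. Cell cycle and mitochondrially encoded genes have few calls.

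Reprogramming cells gain epithelial genes on the way. Of 20 genes of simple epithelium, 5 were called higher in ESC, 3 lower and 12 neither, shares near the 20.2% and 14.9% of all tested genes. Their sums were 544 and 549 CPM in D6 and 805 and 815 CPM in ESC. Cdh1 (E-cadherin) was at 77.4 and 80.2 CPM in D6 and 357 and 355 CPM in ESC, 4.52-fold higher (log2 fold change 2.18 ± 0.05, adjusted p = 3.2e-14). Epcam, the adhesion molecule of the same cells, was at 121 and 120 CPM in D6 and 143 and 145 CPM in ESC, a log2 fold change of 0.26 ± 0.03 that missed the fold minimum (adjusted p = 7.9e-06). Cldn4 was at the threshold (log2 fold change 1.01 ± 0.05) and lost its call without ESC replicate 1 or D6 replicate 1 (0.98 and 0.95). Pkp1, a desmosomal plaque protein, was at 8.44 and 8.92 CPM in D6 and 0.354 and 0.694 CPM in ESC. Cdh3 (P-cadherin) was at 0.5 and 0.514 CPM in D6 and 30.6 and 33.3 CPM in ESC, with 219 CPM in MEF, and its direction turned at the 90th percentile feeder share. At day 9 the sum was 2310 and 2380 CPM, above both groups.

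Among 16 tested genes of stratified epithelium, 8 were called higher, 6 lower and 2 neither. Perp, a desmosome-associated p53 target, was at 122 CPM in both D6 libraries and 19.8 ± 0.977 CPM (SD, n = 2) in ESC, 6.17-fold higher in D6 (adjusted p = 1e-15). Ly6d, a surface antigen of keratinocytes and lymphoid precursors, was at 6.47 and 5.23 CPM in D6 and had 2 reads in ESC. Krt17, a keratin of appendages and activated keratinocytes, went the other way, from 0.588 and 0.847 CPM to 14.4 and 13.8 CPM, and the cell cycle inhibitor Sfn from 8.97 and 9.41 CPM to 41.1 and 45.5 CPM. The basal keratins Krt5 and Krt14 were at most at 0.401 and 1.15 CPM in the 4 libraries.

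Energy metabolism differed in degree. Of 18 glycolysis genes, 9 were called higher in ESC, 2 lower and 7 neither, and their sums were 6000 and 6070 CPM in D6 and 11100 and 11300 CPM in ESC. Pfkp, a phosphofructokinase, was at 26.2 and 23.7 CPM in D6 and 203 and 193 CPM in ESC, 7.95-fold higher (log2 fold change 2.99 ± 0.05, adjusted p = 1.4e-15). Slc2a1, the ubiquitous glucose transporter, rose from 120 and 123 CPM to 402 and 431 CPM (log2 fold change 1.78 ± 0.04). Eno2 and Aldoc, isoforms known from neurons, were the 2 members that fell. MEF sums were 15900 and 16000 CPM, and less the median feeder share the same numbers, 9 and 2, were called. Pkm, pyruvate kinase, was at 1670 and 1690 CPM in D6 and 2630 and 2690 CPM in ESC (log2 fold change 0.66 ± 0.03, adjusted p = 1.9e-11) and was not called.

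Mouse ESCs break down threonine to glycine, which feeds folate metabolism. Of 14 genes of threonine, glycine and serine metabolism, 6 were called higher and 0 lower. Gldc, the glycine decarboxylase, was at 15.8 and 13.8 CPM in D6 and 122 and 123 CPM in ESC, 8.27-fold higher, and Amt, its partner in the glycine cleavage system, was at 10.8 and 10.1 CPM in D6 and 86.3 and 84.1 CPM in ESC, 8.13-fold higher (adjusted p = 5.4e-15 and 5.1e-15). The first enzyme of the route, Tdh, was not below its ESC level in D6, as given above. Mthfd2, a mitochondrial folate enzyme, rose from 25.1 and 23 CPM to 113 and 122 CPM (log2 fold change 2.29 ± 0.05). Of 13 mitochondrially encoded genes, 0 were called higher and 1 lower, with 12 neither, and they took 3.07% and 3.15% of reads in D6 and 2.88% and 2.83% in ESC. The gene called, mt-Nd3 (log2 fold change -1.03 ± 0.17), missed the fold minimum without ESC replicate 2 (-0.75), without D6 replicate 1 (-0.87) and in DESeq2 (-0.95).

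Several detoxification genes stood high in D6. Of 15 genes of the Nrf2 response and of redox detoxification tested, 2 were called higher in ESC, 5 lower and 8 neither. Over all tested genes the shares were 20.2% higher and 14.9% lower. Aldh3a1, an aldehyde dehydrogenase of cornea and stomach, was at 419 and 416 CPM in D6 and 1.33 and 1.23 CPM in ESC, 327-fold higher in D6 (log2 fold change -8.35 ± 0.07, adjusted p = 1.6e-18). MEF had 0.259 and 0.244 CPM, so D6 stood above both. Slc7a11, the cystine importer, was at 288 and 277 CPM in D6 and 2.65 and 2.78 CPM in ESC, 104-fold higher in D6 (log2 fold change -6.7 ± 0.07, adjusted p = 3.1e-17). Gstm1 and Gsta4, glutathione transferases, also fell, Gstm1 from 250 and 254 CPM to 25 and 24.7 CPM. The Nrf2 gene Nfe2l2 itself was at 88.8 and 87.2 CPM in D6 and 86.3 and 86.8 CPM in ESC (adjusted p = 0.61). Hmox1, heme oxygenase, was at 21.4 and 23.7 CPM in D6 and 122 and 123 CPM in ESC, and was higher.

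Of 20 cell cycle genes, 2 were called higher, 3 lower and 15 neither, beside 20.2% higher and 14.9% lower over all tested genes. Ccne1 (cyclin E1) was at 67 and 64 CPM in D6 and 178 and 174 CPM in ESC, 2.69-fold higher, and Ccnd3 rose by a log2 fold change of 1.26 ± 0.04. Ccnd2 (cyclin D2) was at 1110 CPM in both D6 libraries and 199 and 200 CPM in ESC, 5.56-fold higher in D6 (log2 fold change -2.47 ± 0.04, adjusted p = 2.9e-16). Cdk6 and Mki67 were the other members called lower, and Cdk6 missed the fold minimum with TPM (-0.4 on log2(TPM + 1)). Of 12 genes of the p53 response and of Cdk inhibitors, 2 were called higher, 3 lower and 7 neither, beside the same shares. Cdkn2c (p18) was at 18.4 and 18.6 CPM in D6 and 2.18 and 2.43 CPM in ESC, 8.03-fold higher in D6. Cdkn2b and Cdkn1c, the 2 higher genes, had MEF means of 104 and 127 CPM, and less the median feeder share 0 members were called higher.

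Imprinted genes, expressed from a single parental copy, held some of the widest gaps. Of 22, 9 were called lower in ESC, 6 higher and 7 neither. H19, a long noncoding RNA of the Igf2 locus, was at 3670 and 3720 CPM in D6 and 30.1 and 31 CPM in ESC, 121-fold higher in D6 (log2 fold change -6.92 ± 0.04, adjusted p = 4.3e-19). Its neighbour Igf2, a growth factor, was at 1030 and 1040 CPM in D6 and 8.48 and 11.3 CPM in ESC, 104-fold higher in D6 (adjusted p = 1.9e-17). MEF held 3040 and 3090 CPM of H19 and 2390 and 2380 CPM of Igf2, so H19 was above and Igf2 below its MEF level in D6. Nnat, a small membrane protein of neural and endocrine cells, was at 197 and 204 CPM in D6 and 5.39 and 5.69 CPM in ESC, 36.2-fold higher in D6, with only 10.4 and 12.4 CPM in MEF. Meg3 and Rian, noncoding RNAs of the Dlk1-Dio3 region, were at 549 and 610 CPM and 852 and 860 CPM in D6, and at 216 and 179 CPM and 293 and 285 CPM in ESC, and both were called lower. Phlda2, a growth regulator of the placenta, had 3 reads in D6 and 34.9 and 35.8 CPM in ESC, a ratio of 791 (interval 270 to 3840). Less the median feeder share, which set H19 and Igf2 to 0 in ESC, 4 members were called higher and 12 lower.

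The groups also differed in sex-linked genes. Xist, the RNA that coats an inactive X chromosome, was at 1320 and 1290 CPM in D6 and 11.3 and 9 CPM in ESC, 128-fold higher in D6 (log2 fold change -7.01 ± 0.09, adjusted p = 1.6e-16). The Y-linked genes Ddx3y and Eif2s3y were at 26.1 and 26.8 CPM and at 21.5 and 20.6 CPM in ESC, whereas D6 had 0.176 and 0.151 CPM of Ddx3y and 1 read of Eif2s3y. MEF libraries had 0.739 and 0.793 CPM of Xist, so the D6 cells did not match the sequenced fibroblasts in this respect either. Tsix, the antisense RNA of Xist, had 1 read in D6 and 6.95 and 7.18 CPM in ESC, and whether quantification used strand is not given in the sources used here. Among genes with at least 10 CPM in the higher group, 36 of 358 X-linked genes (10.1%) were called higher and 87 (24.3%) lower, with a median log2 fold change of -0.32. For 10468 autosomal genes the shares were 11.4% and 14.4% and the median -0.04. Over all tested genes, with no such level, 153 of 746 X-linked genes (20.5%) were higher and 143 (19.2%) lower, against 20.2% and 14.7% of autosomal genes, so the side with more X-linked calls depends on the level required. Chromosomal sex and stage cannot be told apart here.

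Of 19 interferon response genes tested, 12 were called higher in ESC, 2 lower and 5 neither, yet their sums were 395 and 407 CPM in D6 and 212 and 213 CPM in ESC. The 2 lower genes carried the sum: Bst2 (tetherin), which holds back budding virus, was at 226 and 237 CPM in D6 and 46.3 and 48.9 CPM in ESC, 4.87-fold higher in D6, and Ddx58 (RIG-I), a sensor of viral RNA, at 109 and 110 CPM in D6 and 39.4 and 37.5 CPM in ESC. Most of the higher genes had low levels in ESC, such as Ifit1 (1.15 and 1.9 CPM), Usp18 (1.5 and 1.17 CPM) and Isg15 (2.8 and 3.63 CPM), and lower ones or no read in D6. MEF had a mean of 3.13, 2.68 and 13.6 CPM of these 3 genes.

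SSEA1, on which the D6 cells were sorted, is made by fucosyltransferases. Of 7 genes of its synthesis, 4 were called lower in ESC, 1 higher and 2 neither. Fut9, which makes the epitope in embryonic cells, was at 74.3 and 67.3 CPM in D6 and 15.2 and 13.5 CPM in ESC, 4.92-fold higher in D6 (log2 fold change -2.3 ± 0.07, adjusted p = 1.2e-12). Fut4 was at 2.03 and 1.72 CPM in D6 and 0.854 and 0.641 CPM in ESC, a call that was lost with TPM in place of counts. D6 cells had been sorted on the product and ESCs had not.

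Genes of other lineages ranged from near 0 to well expressed. Of 9 tested genes of extraembryonic endoderm, 5 were called higher, 1 lower and 3 neither. The higher ones, Gata4, Sox17, Sox7, Amn and Cubn, were at most at 2.62 CPM in ESC. Dab2, the lower one, was at 36.6 and 39.4 CPM in D6 and 16.6 and 15.9 CPM in ESC. Lamb1, not called, was at 179 and 169 CPM in D6 and 250 and 252 CPM in ESC. Of 9 tested trophoblast genes, 4 were called higher, 1 lower and 4 neither. Tfap2c, not called, was at 39.1 and 38.8 CPM in D6 and 33.4 and 35.9 CPM in ESC. Tfap2a, an AP-2 factor of ectoderm and trophoblast, was at 14 and 13 CPM in D6 and 1.89 and 1.79 CPM in ESC (log2 fold change -2.87 ± 0.16, adjusted p = 6.1e-10). Endothelial markers split, with 4 higher and 4 lower of 8 and sums of 149 and 143 CPM in D6, 50.7 and 53 CPM in ESC. Tek (Tie2), the angiopoietin receptor, was at 110 and 107 CPM in D6 and 7.07 and 7.5 CPM in ESC, 14.9-fold higher in D6 (adjusted p = 1.7e-16), and Cdh5 (VE-cadherin) at 9.38 and 9.41 CPM in D6 and 0.147 and 0.0534 CPM in ESC. Vwf and Emcn, by contrast, were higher in ESC, and Emcn had no read in D6. Of 8 neural and glial markers, 2 were called higher, 3 lower and 3 neither, beside 20.2% higher and 14.9% lower over all tested genes. Tubb3, the neuronal tubulin, was at 2.35 and 2.03 CPM in D6 and 90.8 and 91.8 CPM in ESC, 41.7-fold higher, and MEF had 94.9 and 96 CPM.

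The 10 largest rises among protein-coding genes were in Gm13145, Triml1, Hormad1, Mageb16, Dazl, Dnmt3l, Zscan4c, Dppa4, Gm13235 and Zscan4f. Of those not yet described, Triml1, a tripartite-motif protein of the early embryo, had no read in D6 and 50 and 40.7 CPM in ESC, at least 1010-fold higher. Mageb16, an X-linked member of the MAGE family, had none in D6 and 41.6 and 42 CPM in ESC, at least 935-fold higher. Gm13145 had none in D6 and 63.3 and 65.4 CPM in ESC, and Gm13235 none in D6 and 20.2 and 20.7 CPM in ESC. They are predicted genes with related copies, so their own shares of reads are uncertain.

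The 10 largest falls were genes that D6 cells expressed and both MEF and ESC expressed little. Tac2, which encodes the neuropeptide neurokinin B, was at 361 and 379 CPM in D6 and 0.737 and 1.15 CPM in ESC, 392-fold higher in D6 (log2 fold change -8.6 ± 0.1, adjusted p = 6.8e-17). Sbspon, a secreted thrombospondin-repeat protein, was at 95.1 and 101 CPM in D6 and 0.0295 and 0.0801 CPM in ESC (log2 fold change -10.68 ± 0.14, adjusted p = 1.8e-16). Slc12a3, the thiazide-sensitive sodium chloride cotransporter of the kidney, was at 85.5 and 92.9 CPM in D6 and 0.295 and 0.16 CPM in ESC, 392-fold higher in D6. MEF levels of these 3 genes were at most 2.13 CPM. Cldn11, a tight junction protein of myelin and testis, was at 44.6 and 42.2 CPM in D6 and had 3 reads in ESC, a ratio of 1030 (interval 353 to 5010). Sptssb, a subunit of serine palmitoyltransferase, was at 24.2 and 22.2 CPM in D6 and had 1 read in ESC, and Nxpe2 was at 63.9 and 66.2 CPM in D6 and had 3 reads in ESC. Sybu (a kinesin linker), Abcc12 (an ABC transporter), Ugt1a6b (a glucuronosyltransferase) and Stac (an adaptor of calcium channels) completed the set, with D6 levels between 30.9 and 70.4 CPM. Ugt1a6b shares most of its sequence with Ugt1a6a, so its level is uncertain.

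**Figure D5:**
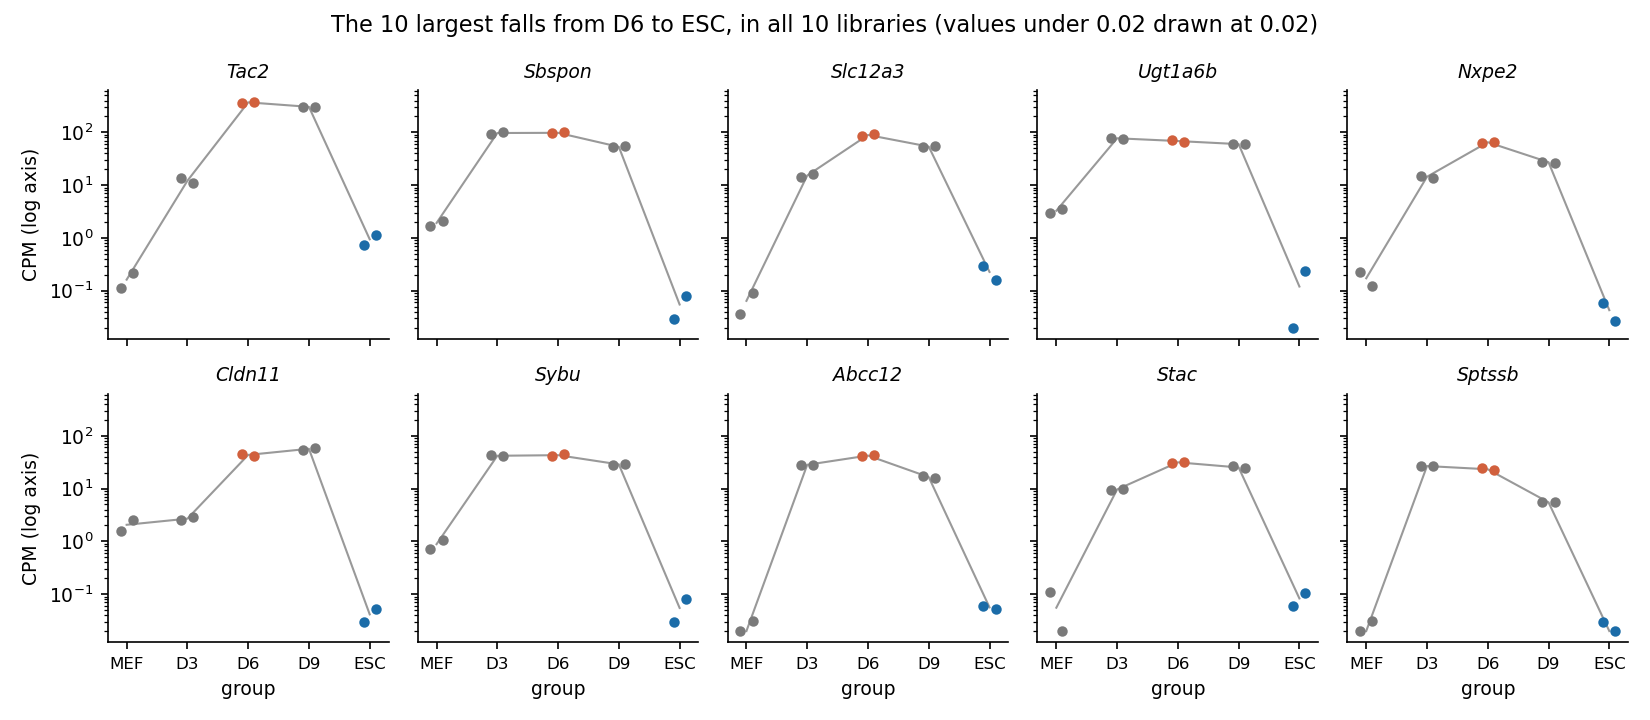
CPM per library (points, log axis) of the 10 genes with the largest fall from D6 to ESC in MEF, D3, D6, D9 and ESC, with lines through the group means. In each panel the D6 points (orange) lie far above the MEF points, the ESC points (blue) lie lowest or near the MEF level, and the D9 points remain above 5 CPM.

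Genes were also counted as on in a single group, without fold changes. In all, 304 genes had at least 5 CPM in both ESC libraries and under 0.5 CPM in both D6 libraries, and 275 of them were protein-coding. At day 9, 202 of the 304 were still under 0.5 CPM in both libraries, and 4 had reached 5 CPM in both. Of the 304, 69 had at least 5 CPM in both MEF libraries, among them Itga11, an integrin of collagen (470 CPM in MEF, 86.8 CPM in ESC), and Cnn1, a smooth muscle calponin (235 CPM in MEF, 53.1 CPM in ESC). Less the median feeder share, 285 genes met the rule. In the other direction, 78 genes had at least 5 CPM in both D6 and under 0.5 CPM in both ESC libraries, 70 of them protein-coding. At day 9, 57 of these 78 were still at 5 CPM or more and 0 were under 0.5 CPM. Less the median feeder share, this count was 184, with genes that the subtraction set to 0 among them. Genes named in this paragraph and not in the lists were chosen after their values were seen.

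Levels at day 9 are given beside those above; the comparison of ESC with day 9 uses the same ESC libraries and that of day 9 with D6 the same D6 libraries. Nanog was at 69.2 and 71.2 CPM at day 9, and its log2 fold changes were 1.45 ± 0.08 from D6 to day 9 and 2.9 from day 9 to ESC. Lin28a was at 12 and 12.3 CPM, with 4.11 from D6 to day 9 and 4.1 from day 9 to ESC. Dppa2, at 1.06 and 0.657 CPM, and Lefty1, at 3.21 and 2 CPM, still had 7.32 and 5.24 to go from day 9. Cdh1 had passed the ESC level, at 405 and 423 CPM (log2 fold change from day 9 to ESC -0.22). Among the genes lower in ESC, H19 was at 573 and 603 CPM and Igf2 at 141 and 145 CPM at day 9, between D6 and ESC, whereas Fut9 (72.1 and 67.2 CPM), Nnat (179 CPM in both) and Tac2 (304 and 305 CPM) were still near their D6 levels.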

How the data were processed

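Poly(A) RNA was sequenced (single-end, stranded TruSeq libraries) in 2 libraries each of MEF, D3, D6, D9 and ESC. The authors deposited a table per library with an estimated count and a TPM value per transcript; the submitters' processing notes name Salmon 0.8.2 and mm10, and the annotation release and strand options are not given in the sources used here. Estimated counts were summed per gene by the gene names in the files and rounded (29585876 to 38275024 per library). Depth limits genes near 0, for which a floor of 3 reads over a group or a 95% counting interval is given.

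Genes were filtered with filterByExpr of edgeR 4.0.16 (count minimum 10, total 15), scaled by TMM, and tested with its quasi-likelihood test in a model with a mean per group over all 10 libraries. A call needed an adjusted p under 0.05 and a difference of 1 or more on the log2 scale, in either direction. Alternatives were DESeq2 1.42.0, limma 3.58.1 on log2 of the deposited TPM plus 1 or 0.1, other filters and scalings, the replicate number as a block, leaving out a library, and subtraction of a feeder share. All were run in R 4.3.3 and Python 3.11.15, and the fit was tested on simulated data in which far fewer genes changed than were called here. Replicate libraries differed by more than sampling noise (chi-square per degree of freedom 2.9 in D6 and 3.35 in ESC). Promoter stretches and motif letters came from RefSeq.

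The genes named were all cassette factors, naive factors, late pluripotency markers and sex-linked genes, with Fut4 and Fut9. From each other list came up to 4 called members with the widest change and at least 10 CPM in the higher group, and the most abundant member not called. The 10 widest rises and 10 widest falls of protein-coding genes were added, with at least 20 CPM in the higher group and no overlap of libraries. Some genes that this rule covers are not reported here. Other genes named were chosen after their values were seen. The members and lists were chosen with earlier results of these data known.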

Additional observations from a re-analysis of the deposited data

How the results depend on the processing

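Of 4079 higher and 3009 lower genes, the counts fell to 1621 and 1623 when 10 CPM was required in 2 libraries, where fewer genes were tested, and to 1756 and 1389 with limma on log2(TPM + 1). They were 7537 and 6788 with no fold minimum, and 1308 lower genes reached a log2 fold change of 2. Leaving out 1 library gave 3851 to 3970 higher and 2883 to 2978 lower genes. The distance of 1.835 became 2.133 with a prior count of 0.5, 0.945 on log2(TPM + 1), 1.721 with the stricter filter, 1.854 without TMM, 2.001 less the median feeder share, and 1.848 to 1.852 without 1 library. With 10 CPM as the level for on, 162 genes were on in ESC and off in D6 and 42 the reverse. With 1 CPM as the level for off the reverse count was 141, and less the median feeder share it was 184. The replicate block gave 3999 higher and 2963 lower genes. Samples shared only a number: the deviations of same-numbered ESC and D6 libraries correlated at 0.0017.

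Of 165 named genes tested, 139 were called, and 121 of these kept direction and call in every alternative in which they were tested. Directions turned as follows, with log2 fold changes; those of genes brought to 0 by subtraction depend on the prior count. Jam2 was 0.15 with limma at either pseudocount. Less the median feeder share, Uhrf1 was 0.05, Egr1 -2.18, Postn -7.5, Col3a1 -8.84, Col1a1 -11.1 and Fbn1 -3.45. Less the 90th percentile share, Uhrf1 was 0.14, Egr1 -15.5, Lox -7.4, Postn -7.46, Col3a1 -8.81, Col1a1 -11.06, Fbn1 -15.4, Cdh3 -7.03, Tfap2c 0.1, Cdkn2b -0.68 and Igf2r -0.15. Uhrf1 was 0.0 with the stricter filter. Myod1, near 0 reads in both groups, ranged from -2.34 to 2.27 when 1 library was left out (0.82 without ESC replicate 2, 2.27 without D6 replicate 2) and was 0.0 with limma at either pseudocount. Apart from the subtraction and the filter, the cause was not tested.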

Other observations

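Of the 78 genes on in D6 and off in ESC, 4 are given here that were picked after their values were seen. That choice fixes the separation of the groups, and no theme was tested. Pax7, a paired-box factor of neural tube and muscle stem cells, was at 40.9 and 36.9 CPM in D6 and 0.354 and 0.16 CPM in ESC. Gsx1, a homeobox factor of the forebrain, was at 26.7 and 28.4 CPM in D6 and 0.442 and 0.427 CPM in ESC. Pax2, a factor of kidney and midbrain, was at 15.9 and 16 CPM in D6 and 0.383 and 0.134 CPM in ESC. Unc5d, a netrin receptor, was at 53.4 and 52.6 CPM in D6 and 0.383 and 0.374 CPM in ESC.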
